A study of Mus musculus with 6 samples.

Results

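The transcription factor Atf4 and a set of genes described as its targets were followed in the mandibular arch, the embryonic tissue that forms the lower jaw, of mouse embryos labelled Tbx1-/- and Tbx1+/+. The set was a list of 41 genes, chosen by name with the result of this same genotype comparison already known, and 40 of them had a probe set named to 1 gene, out of 18194 such genes on the array. Expression of Pycr1 was not analysed here. The members were 12 transcription factors and stress effectors, 7 amino acid transporters, 9 measured enzymes of amino acid, serine and one-carbon metabolism, and 12 cytosolic aminoacyl-tRNA synthetases. Each gene was read on its brightest probe set, and all 40 passed the filter on dim probe sets, which asked for a log2 value above 4 on at least 3 arrays and kept 16074 genes.

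RNA came from mandibular arches dissected at E10.5 from C57BL/6 embryos, with 3 arrays labelled Tbx1-/- (homozygous for loss of the T-box factor Tbx1) and 3 labelled Tbx1+/+ (wild type). The labels describe pools of 3 embryos of a genotype. They leave unclear whether every array had a separate pool, so the p-values here reflect the spread from array to array, and that spread may be technical. The question is what loss of Tbx1 changes in the arch, and neither the labels nor the design text says which part of Tbx1 the null allele lacks. A value is the authors' GCRMA log2 expression, so a step of 1 is a doubling, and a difference is the mean of the arrays labelled Tbx1-/- minus the mean of those labelled Tbx1+/+.

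Atf4 is a basic leucine zipper factor at the end of the integrated stress response. Kinases that sense amino acid shortage, unfolded protein in the endoplasmic reticulum, viral RNA or lack of heme phosphorylate the translation factor eIF2, which slows protein synthesis in general but favours translation of the Atf4 mRNA. Atf4 protein, often as a dimer with a C/EBP factor, then binds C/EBP-ATF response elements and raises genes for amino acid uptake, amino acid synthesis, tRNA charging and feedback on the response. Because the control lies largely in translation, the Atf4 mRNA itself need not follow the activity of the protein.

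The C/EBP-ATF element was looked for as TGATGNAA, on both strands, in windows from 250 bases before to 50 bases after each annotated start in RefSeq (GRCm38.p6). Of the 41 members 33 had such a window, 37 windows in all, and 14 windows (37.8%) of 14 genes held the motif, against 3.97% of all 32851 windows. The exact form TGATGCAA was in 11 of the 37 windows (29.7%), against 0.895% of all windows. Windows of the synthetases held TGATGNAA most often (5 of 8 windows, 62.5%), next to 5 of 14 (35.7%) for the stress effectors, 2 of 6 (33.3%) for the transporters and 2 of 9 (22.2%) for the enzymes. Among pathway genes outside the member list, it was in 4 of 18 windows (22.2%) of further genes described as Atf4 targets. It was in 1 of 11 windows of genes upstream of Atf4, 1 of 10 of other bZIP factors and 2 of 23 of the remaining transporters. The shares of these lists exceeded the 3.97% of all windows. The motif was in 0 of 8 windows of the remaining cytosolic synthetases and their scaffold proteins. It was also in 0 of 15 of the mitochondrial synthetases and 0 of 14 of the remaining one-carbon enzymes. The members were listed as Atf4 targets, partly from earlier work on such elements, so the shares of members describe the list. A match in a window is not shown to be bound, and windows without a match say nothing of Atf4. The 250 bases before the start are shown for 4 members, on the strand of the gene and with the motif or its reverse complement TTNCATCA in capitals, as examples of a stress effector, a stress-induced factor, a transporter with a pair of facing sites and an enzyme.
Chac1 (chr2:119350992-119351241, + strand): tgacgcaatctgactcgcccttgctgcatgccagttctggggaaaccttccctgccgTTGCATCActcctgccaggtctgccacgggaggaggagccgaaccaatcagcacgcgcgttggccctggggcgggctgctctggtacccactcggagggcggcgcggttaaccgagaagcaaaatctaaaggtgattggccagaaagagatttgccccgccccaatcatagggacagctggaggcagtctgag
Atf3 (chr1:191183334-191183583, - strand): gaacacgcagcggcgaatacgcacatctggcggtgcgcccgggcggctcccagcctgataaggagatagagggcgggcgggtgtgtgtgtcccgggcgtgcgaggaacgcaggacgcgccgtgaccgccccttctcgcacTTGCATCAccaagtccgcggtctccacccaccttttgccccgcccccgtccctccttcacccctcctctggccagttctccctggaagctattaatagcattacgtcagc
Slc7a11 (chr3:50443614-50443863, - strand): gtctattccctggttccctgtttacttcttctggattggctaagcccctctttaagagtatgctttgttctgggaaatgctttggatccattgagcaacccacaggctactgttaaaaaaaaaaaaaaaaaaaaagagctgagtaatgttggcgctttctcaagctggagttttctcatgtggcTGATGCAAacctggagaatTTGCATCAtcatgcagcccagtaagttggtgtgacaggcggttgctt
Asns (chr6:7693210-7693459, - strand): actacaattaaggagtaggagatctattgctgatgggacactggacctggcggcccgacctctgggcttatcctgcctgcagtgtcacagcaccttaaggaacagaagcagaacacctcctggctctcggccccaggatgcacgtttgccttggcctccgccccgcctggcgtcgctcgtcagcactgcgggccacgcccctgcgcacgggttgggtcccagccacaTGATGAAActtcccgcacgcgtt

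Further sites are shown as 30 bases around the motif, so that the core and its neighbours can be compared between stress effectors, a transporter, an enzyme and synthetases.
Trib3 (chr2:152344028-152344057, - strand): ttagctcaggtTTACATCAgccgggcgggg
Vldlr (chr19:27216809-27216838, + strand): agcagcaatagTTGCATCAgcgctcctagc
Nupr1 (chr7:126625562-126625591, - strand): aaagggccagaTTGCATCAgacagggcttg
Slc1a4 (chr11:20332699-20332728, - strand): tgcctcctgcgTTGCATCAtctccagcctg
Pycr1 (chr11:120643833-120643862, - strand): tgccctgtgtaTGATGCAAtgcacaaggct
Gars (chr6:55037960-55037989, + strand): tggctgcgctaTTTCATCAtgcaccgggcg
Iars (chr13:49682126-49682155, + strand): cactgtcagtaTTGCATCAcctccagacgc
Tars (chr15:11399655-11399684, - strand): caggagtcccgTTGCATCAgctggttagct
Yars (chr4:129189895-129189924, + strand): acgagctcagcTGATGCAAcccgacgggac

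The motif lay close to the start in several members. Among synthetases it began 15 bases before the start in Tars, 30 before in Gars, and at base 4 after the start in Yars and base 8 in Iars. Aars, also a synthetase, held a site 112 bases before the start and another at base 10 after it. In the transporter Slc1a4 the motif began 4 bases before the start, and in the enzyme Asns 23 before. In Trib3 it began at base 15 after the start, and in Chac1 it began 193 bases before the start. Among measured members, the 13 with the motif had a median difference of 0.22 (log2), the 19 with a window and no motif 0.16, and the 8 without a window (Slc7a3, Slc7a5, Cth, Aldh1l2, Nars, Cars, Wars and Lars) 0.16.

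Tbx1 itself read 7.59, 7.50 and 7.30 (log2) on the arrays labelled Tbx1-/- and 6.93, 7.31 and 6.92 on those labelled Tbx1+/+, so its probe set was not lower under the null label (difference 0.41, SE 0.14, adjusted p in limma 1.00). Directions below follow the labels. All 11 genes of the mandibular arch list, such as Dlx5 and Msx1, passed the filter, and their summed level lay between 14.88 and 14.94 (log2) under the Tbx1-/- label and between 14.86 and 14.96 under the Tbx1+/+ label. Replicate 3 labelled Tbx1-/- stood apart: for 249 genes its log2 value exceeded the mean of the remaining arrays by more than 1, against 6 to 32 genes for any other array. Its placental transcripts were high: the summed level of 11 placental genes with a probe set, of 15 listed, was 14.81 (log2) there, the highest in a range of 9.53 to 14.81 under the Tbx1-/- label, and 9.24 to 9.62 under the Tbx1+/+ label. Of these 11 genes, 5 (Prl7a1, Prl8a9, Tpbpa, Ctsj and Ctsq) were at or under 4 on every Tbx1+/+ array, and 1, Hand1, is also an arch gene. The leading members are given with and without replicate 3. The summed level of muscle progenitor genes was 10.59 to 10.97 under the Tbx1-/- label and 10.87 to 11 under the Tbx1+/+ label, a sum carried by Isl1. The median difference of these 6 genes was -1.19. Of them, 5 were lower on every array labelled Tbx1-/-, as were 3.25% of all genes, and 2 of these passed in limma, where 0.0249% of all genes passed as lower. Yolk sac genes summed to 8.48 to 9.10 under the Tbx1-/- label and 9.22 to 10.39 under the Tbx1+/+ label. Neuronal genes summed to 10.78 to 11.11 under the Tbx1-/- label and 10.70 to 10.88 under the Tbx1+/+ label, a sum also carried by Isl1. Of these 8 genes, 3 were higher on every array labelled Tbx1-/- than on any labelled Tbx1+/+ and 0 lower, against 3.17% and 3.25% of all genes. Erythroid genes summed to 15.01 to 15.28 under the Tbx1-/- label and 15.25 to 15.29 under the Tbx1+/+ label. The part of these lists in the members' differences was not tested. In pooled tissue, fewer cells of a type and less RNA per cell cannot be told apart.

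Across the 40 members the median difference was 0.18 (log2), against -0.01 over all genes kept, and 37 members had a higher mean on the arrays labelled Tbx1-/-, as did 47.3% of all genes. That count cannot be read as support, since the list was chosen on this comparison. Of the 40 members 0 passed in limma at an adjusted p of 0.05, where 0.0373% of all genes passed, 0.0124% as higher and 0.0249% as lower. With the replicate number as a block 0 members passed too, where 0.0622% of all genes did. Counted at an unadjusted p below 0.05, 12 members had higher and 0 lower values, where 1.47% of all genes were higher and 1.2% lower. All 3 arrays labelled Tbx1-/- lay above all 3 labelled Tbx1+/+ for 14 members and below for 0, against 3.17% and 3.25% of all genes. The counts of 12 and 14 members cannot be read as support either, for the same reason. By role the medians were 0.55 for the stress effectors, 0.26 for the transporters, 0.18 for the enzymes and 0.10 for the synthetases. The order of transporters and enzymes turned without replicate 3 labelled Tbx1-/-, at 0.21 and 0.23.

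**Figure D1:**
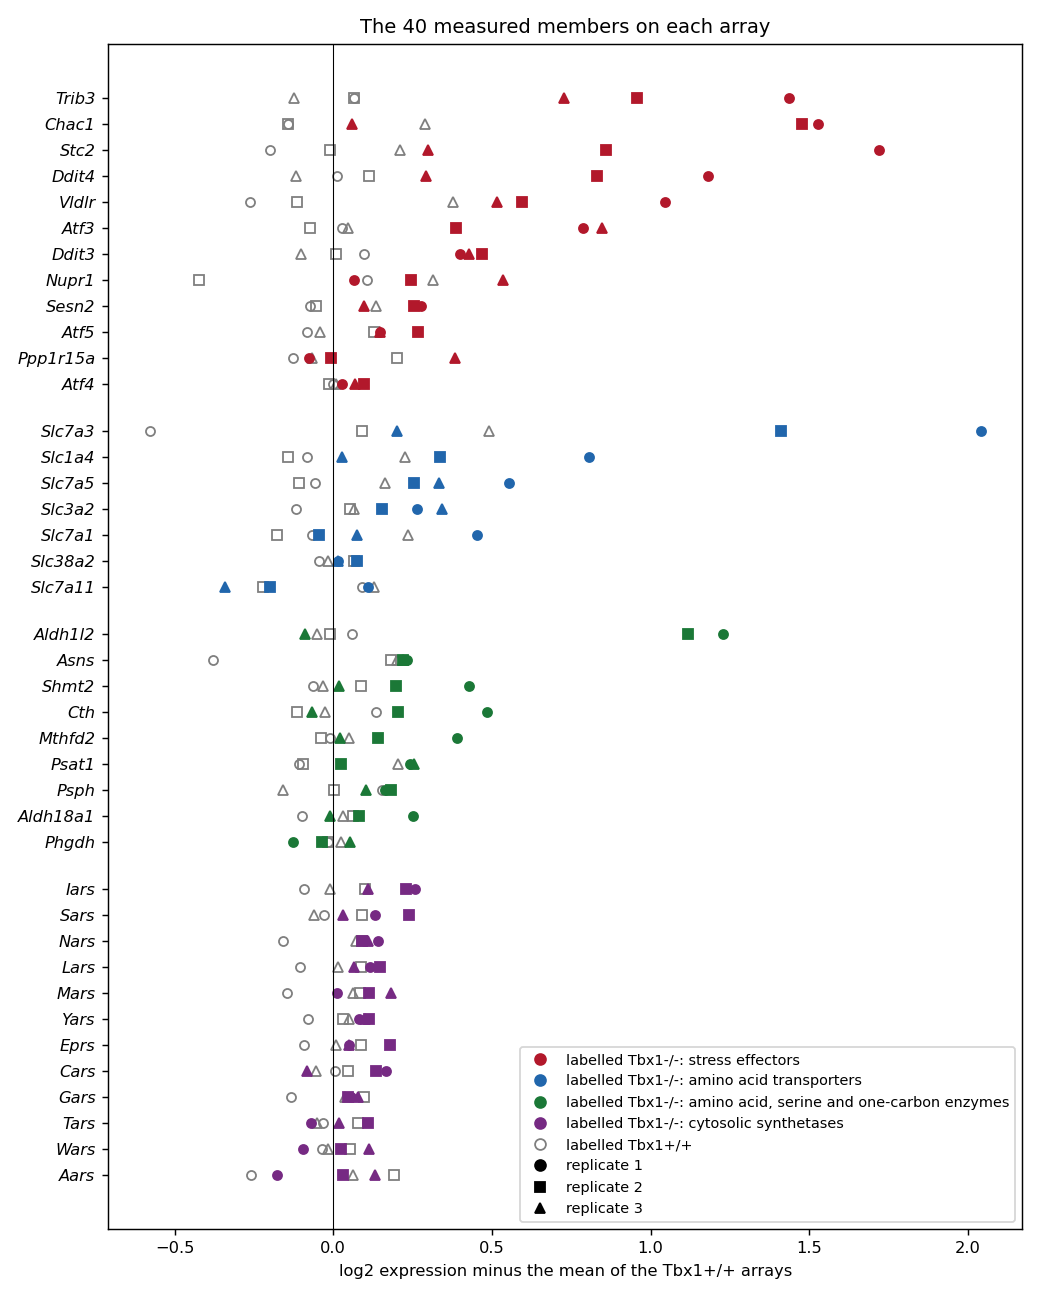
Log2 expression of each measured member on each array, minus the mean of the 3 Tbx1+/+ arrays (horizontal axis), with members in rows grouped by role. Filled symbols are arrays labelled Tbx1-/- and open symbols arrays labelled Tbx1+/+, with a shape per replicate. By median the stress effectors lie furthest to the right, although Slc7a3, a transporter, has the largest single difference. The synthetases differ least. On replicates 1, 2 and 3 labelled Tbx1-/-, 6, 9 and 5 of the 12 synthetases lie above all 3 Tbx1+/+ arrays.

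Atf4 mRNA was almost level between the genotypes. It read 12.11, 12.18 and 12.15 (log2) on the arrays labelled Tbx1-/- and 12.08, 12.07 and 12.09 on those labelled Tbx1+/+, a difference of 0.06 (SE 0.05), or 1.05-fold. The groups did not overlap on that probe set, but they did on its 2 other sets, which differed by 0.04 and 0.16. Atf5, a related factor under the same translational control, read 8.60, 8.72 and 8.60 under the Tbx1-/- label and 8.37, 8.58 and 8.41 under the Tbx1+/+ label. Its difference was 0.19 (SE 0.10), and the lowest value under the Tbx1-/- label lay just above the highest under the Tbx1+/+ label.

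Several other stress effectors differed by more than Atf4 and Atf5 did, although 0 passed in limma. Trib3, a pseudokinase that restrains Atf4 and Akt signalling, read 7.71, 7.23 and 7.0 (log2) on the arrays labelled Tbx1-/- and 6.34, 6.34 and 6.15 on those labelled Tbx1+/+, a 2.06-fold difference (log2 1.04, SE 0.18). All of its arrays under the Tbx1-/- label were higher, and its other probe set differed by 1.17. Chac1, which degrades glutathione, read 6.05, 6.00 and 4.58 under the Tbx1-/- label and 4.38, 4.38 and 4.81 under the Tbx1+/+ label. Its groups overlapped, since replicate 3 labelled Tbx1-/- lay at the level of the Tbx1+/+ arrays, which is close to the filter of 4. The difference of Chac1 was 1.02 (SE 0.36) on all arrays and 1.50 without that replicate. Stc2, a secreted glycoprotein hormone, read 7.81, 6.95 and 6.39 under the Tbx1-/- label and 5.89, 6.08 and 6.30 under the Tbx1+/+ label. The groups were separate by a small margin, its difference was 0.96 (SE 0.31), and it ranged from 0.58 without replicate 1 labelled Tbx1-/- to 1.29 without replicate 3. Its 2 other probe sets differed by 0.92 and, with overlap through replicate 3 labelled Tbx1-/-, by 2.15.

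Ddit4, an inhibitor of mTORC1 that is also induced by hypoxia, read 13.38, 13.03 and 12.49 (log2) on the arrays labelled Tbx1-/- and 12.21, 12.31 and 12.08 on those labelled Tbx1+/+. The groups did not overlap, and the difference of 0.77 (SE 0.19) was 0.56 without replicate 1 labelled Tbx1-/- and 1.01 without replicate 3. Vldlr, a lipoprotein and reelin receptor, read 10.61, 10.16 and 10.08 under the Tbx1-/- label and 9.30, 9.45 and 9.94 under the Tbx1+/+ label, a difference of 0.72 (SE 0.19). The groups did not overlap on this set. Its 5 other probe sets had higher means as well, by 0.38 to 0.78, and the groups overlapped on 3 of them.

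Atf3 and Ddit3 did not share the low value of replicate 3 labelled Tbx1-/-. Atf3, a stress-induced repressor, read 6.81, 6.41 and 6.87 (log2) under the Tbx1-/- label and 6.05, 5.95 and 6.07 under the Tbx1+/+ label, so replicate 3 was the highest array. Its difference was 0.68 (SE 0.14). Ddit3, which encodes the pro-apoptotic factor CHOP, read 8.66, 8.73 and 8.69 on the arrays labelled Tbx1-/- and 8.36, 8.27 and 8.16 on those labelled Tbx1+/+. The 3 arrays labelled Tbx1-/- were nearly equal and all higher, by 0.43 (SE 0.10) in the mean. A dimmer Ddit3 set differed by 0.14, with overlapping groups. Sesn2, a leucine sensor, and Nupr1, a chromatin-associated stress protein, differed by 0.21 (SE 0.11) and 0.29 (SE 0.21), with overlapping groups. The difference of Nupr1 was 0.16 without replicate 3 labelled Tbx1-/- and 0.08 without replicate 2 labelled Tbx1+/+. Ppp1r15a, the inducible phosphatase subunit that reverses eIF2 phosphorylation, differed by 0.10 (SE 0.15) and by -0.04 without replicate 3 labelled Tbx1-/-.

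**Figure D2:**
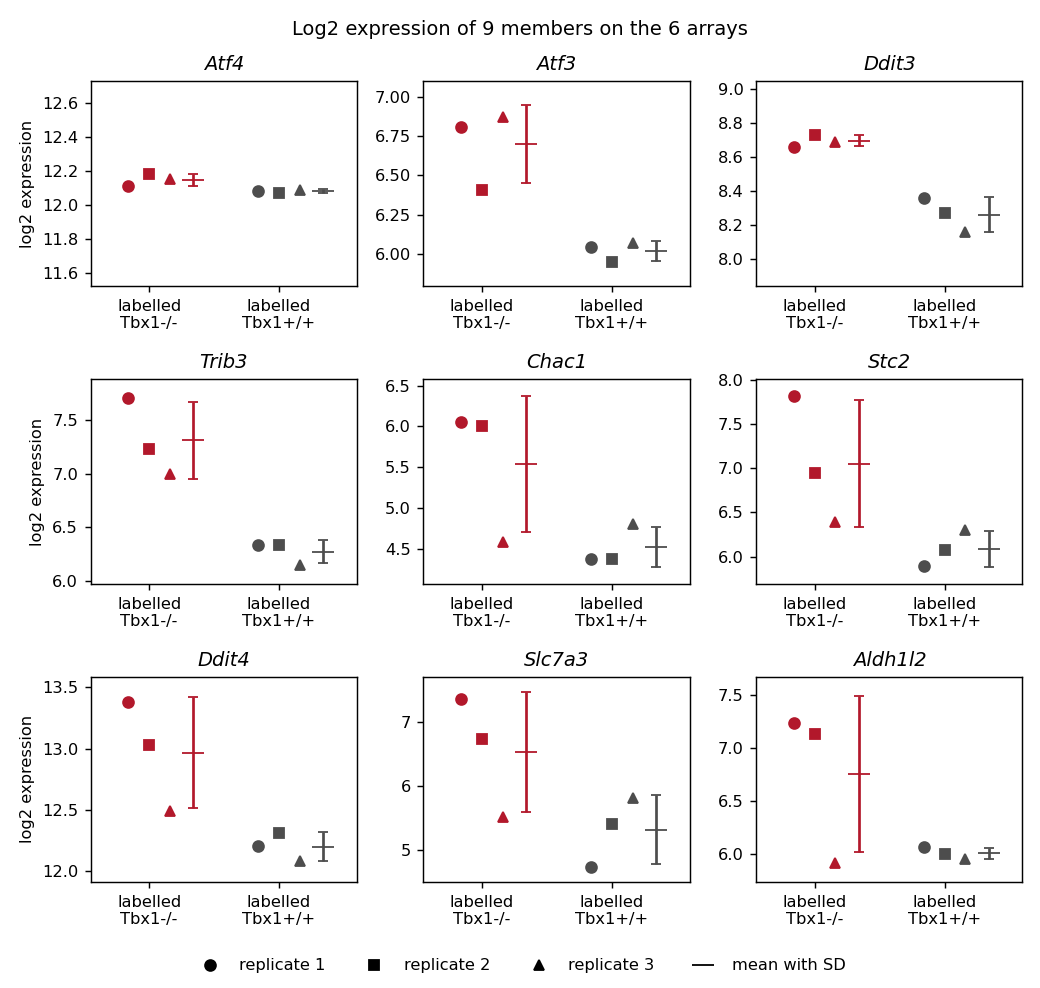
Log2 expression of 9 members (vertical axes, each with its own range) on the arrays labelled Tbx1-/- (left) and Tbx1+/+ (right), with a shape per replicate and the mean with its SD beside the points. Atf4 is almost level, and replicate 3 labelled Tbx1-/- falls to the Tbx1+/+ arrays for Chac1, Slc7a3 and Aldh1l2 but not for Atf3 or Ddit3.

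Among amino acid transporters, Slc7a3 had the largest difference. This carrier of arginine and lysine read 7.36, 6.73 and 5.52 (log2) on the arrays labelled Tbx1-/- and 4.74, 5.41 and 5.81 on those labelled Tbx1+/+. Replicates 1 and 2 labelled Tbx1-/- were above every Tbx1+/+ array and replicate 3 was not, and the Tbx1+/+ arrays themselves spread over more than 1. Its difference was 1.22 (SE 0.44) on all arrays, 0.80 without replicate 1 labelled Tbx1-/- and 1.72 without replicate 3. Slc7a5, the light chain of the large neutral amino acid exchanger, read 9.41, 9.11 and 9.19 under the Tbx1-/- label and 8.80, 8.75 and 9.02 under the Tbx1+/+ label. Slc3a2, the heavy chain that brings it to the membrane, read 10.63, 10.52 and 10.71 under the Tbx1-/- label and 10.25, 10.42 and 10.43 under the Tbx1+/+ label. Neither pair of groups overlapped, and the differences were 0.38 (SE 0.12) for Slc7a5 and 0.26 (SE 0.09) for Slc3a2.

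Slc1a4, a carrier of alanine, serine and cysteine, read 11.47, 11 and 10.69 (log2) on the arrays labelled Tbx1-/- and 10.58, 10.52 and 10.89 on those labelled Tbx1+/+, a difference of 0.39 (SE 0.19). The difference was 0.18 without replicate 1 labelled Tbx1-/- and 0.57 without replicate 3. Its replicate 3 under the Tbx1-/- label lay below the highest Tbx1+/+ array. Slc7a11, the cystine importer whose window holds a pair of facing motifs, read 5.74, 5.43 and 5.29 under the Tbx1-/- label and 5.72, 5.41 and 5.76 under the Tbx1+/+ label. It was the only transporter of the list with a lower mean (-0.14, SE 0.16), and its groups overlapped. Without replicate 3 labelled Tbx1-/- it differed by -0.04. Slc7a1, an arginine carrier, differed by 0.16 (SE 0.15), and by 0.01 without replicate 1 labelled Tbx1-/-. Slc38a2, a glutamine carrier, differed by 0.03 (SE 0.06), and the groups of both overlapped.

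Among the enzymes, Aldh1l2 stood out. This mitochondrial folate dehydrogenase read 7.24, 7.13 and 5.92 (log2) on the arrays labelled Tbx1-/- and 6.07, 6.00 and 5.96 on those labelled Tbx1+/+. Replicates 1 and 2 labelled Tbx1-/- were more than 1 above every Tbx1+/+ array, while replicate 3 lay below all of them. The difference of 0.75 (SE 0.31) became 1.17 without replicate 3 labelled Tbx1-/- and 0.51 without replicate 1. The other enzymes of the mitochondrial branch differed less, Shmt2, which splits serine to glycine, by 0.21 (SE 0.11) and Mthfd2, the next folate dehydrogenase, by 0.18 (SE 0.10). Without replicate 1 labelled Tbx1-/- these were 0.11 for Shmt2 and 0.08 for Mthfd2, and without replicate 3 they were 0.31 and 0.27. The 4 probe sets of Shmt2 differed by 0.20 to 0.35.

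Among the enzymes that make serine from a glycolytic intermediate, only Phgdh was near level, and Psat1 and Psph were close to the median of the enzymes (0.18). Phgdh, the first of them, differed by -0.04 (SE 0.06), Psat1, the aminotransferase, by 0.17 (SE 0.10), and Psph, the phosphatase, by 0.15 (SE 0.10), all with overlapping groups. Asns, asparagine synthetase and a standard readout of Atf4, read 11.69, 11.68 and 11.68 on the arrays labelled Tbx1-/- and 11.08, 11.64 and 11.66 on those labelled Tbx1+/+. The groups did not overlap, but only replicate 1 labelled Tbx1+/+ was clearly lower, and the difference of 0.22 (SE 0.14) was 0.03 without it. The second Asns probe set read 11.70, 11.54 and 11.54 under the Tbx1-/- label and 11.22, 11.39 and 11.52 under the Tbx1+/+ label, also with separate groups and a difference of 0.22. Cth, which makes cysteine, differed by 0.21 (SE 0.15), with 0.07 without replicate 1 labelled Tbx1-/- and 0.35 without replicate 3. Aldh18a1, which starts proline synthesis, differed by 0.11 (SE 0.09), with 0.04 without that replicate 1 and 0.17 without that replicate 3. The groups of both overlapped.

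The 12 cytosolic synthetases, which charge tRNAs with their amino acids, differed by -0.01 to 0.20. Iars, for isoleucine, had the largest difference, reading 11.59, 11.56 and 11.44 (log2) on the arrays labelled Tbx1-/- and 11.24, 11.43 and 11.32 on those labelled Tbx1+/+. Its groups were separate by a small margin, and the difference was 0.20 (SE 0.08), or 1.15-fold. Nars, for asparagine, and Yars, for tyrosine, also had groups that were just separate, at 0.11 (SE 0.08) and 0.10 (SE 0.08). Sars (0.13), Lars (0.11), Mars (0.11), Eprs (0.09), Cars (0.07), Gars (0.06), Tars (0.02), Wars (0.01) and Aars (-0.01) overlapped. The median of 0.10 became 0.04 without replicate 1 labelled Tbx1+/+, the array on which the list was lowest, and ranged from 0.07 to 0.13 without each of the others.

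The list medians on single arrays show how the roles divide. The stress effectors lay 0.59, 0.43 and 0.34 above their Tbx1+/+ means (log2) on replicates 1, 2 and 3 labelled Tbx1-/-, against -0.04 to 0.03 on the arrays labelled Tbx1+/+. The transporters lay at 0.46, 0.16 and 0.07 under the Tbx1-/- label and between -0.11 and 0.17 under the Tbx1+/+ label, and the enzymes at 0.25, 0.19 and 0.02 under the Tbx1-/- label and -0.01 to 0.03 under the Tbx1+/+ label. The synthetases lay at 0.07, 0.12 and 0.09 under the Tbx1-/- label, against -0.09 to 0.09 under the Tbx1+/+ label. The ranges of the transporters, the enzymes and the synthetases overlapped between the labels, and those of the stress effectors did not. Replicate 3 was the lowest of the arrays labelled Tbx1-/- for 19 of the 40 members and replicate 1 the highest for 20. This order was not shared by all members, since replicate 1 was the lowest for 13, with 6 of the 12 synthetases and 5 of the 12 stress effectors among them.

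**Figure D3:**
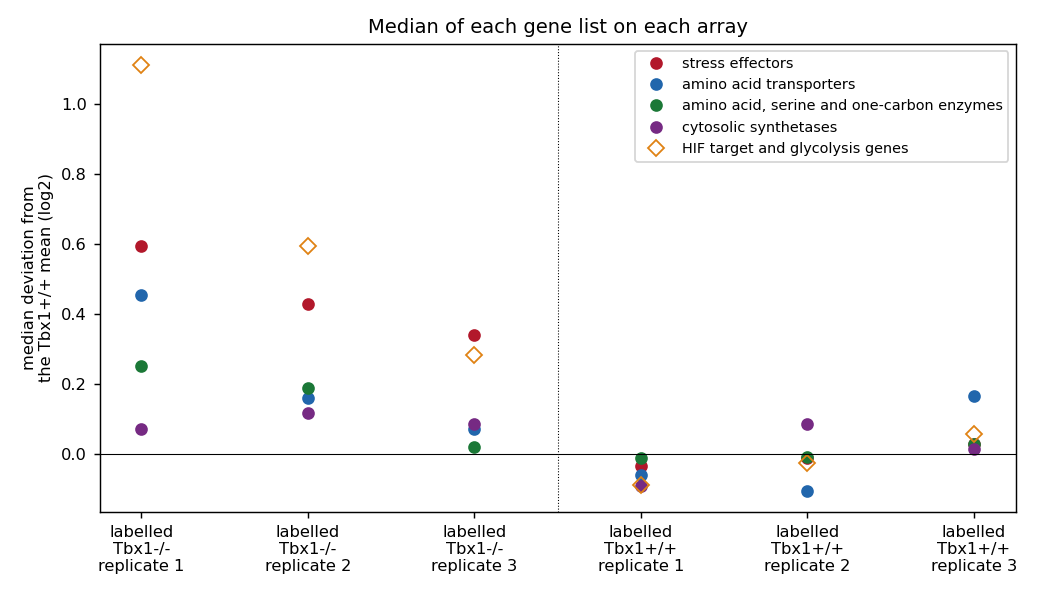
Median over the genes of a list of the log2 deviation from the Tbx1+/+ mean (vertical axis) on each array (horizontal axis). Filled circles are the 4 roles of members and open diamonds 16 HIF target and glycolysis genes. Replicate 1 labelled Tbx1-/- is highest for all lists shown except the synthetases.

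A list of 16 HIF target and glycolysis genes, which respond to low oxygen, was higher on the same arrays. Its median deviation was 1.11, 0.59 and 0.28 (log2) on replicates 1, 2 and 3 labelled Tbx1-/-, against -0.09 to 0.06 on the arrays labelled Tbx1+/+. All 16 genes were measured, and all had higher means under the Tbx1-/- label, as did 47.3% of all genes. This list too was chosen with earlier results of these data known, so that count cannot be read as support. The summed level of the 16 genes was 15.62 to 15.93 under the Tbx1-/- label and 15.22 to 15.38 under the Tbx1+/+ label. Ddit4, Vldlr and Stc2 are known to respond to HIF as well. The part of this list in the members' differences was not tested.

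Without replicate 3 labelled Tbx1-/-, the array with the highest placental sum, the differences were as large or larger for most of the leading members. The median was 0.51 for the stress effectors, 0.21 for the transporters, 0.23 for the enzymes and 0.11 for the synthetases. In limma 4 members then passed the threshold, Trib3, Chac1, Ddit4 and Aldh1l2, all higher, where 0.0871% of all genes passed as higher. The fold differences were 2.29 for Trib3, 2.83 for Chac1, 2.01 for Ddit4 and 2.25 for Aldh1l2. Atf3 was the exception among the leading members, at 0.59 without the array against 0.68 with it. These counts come from the comparison on which the members were chosen and support nothing.

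**Figure D4:**
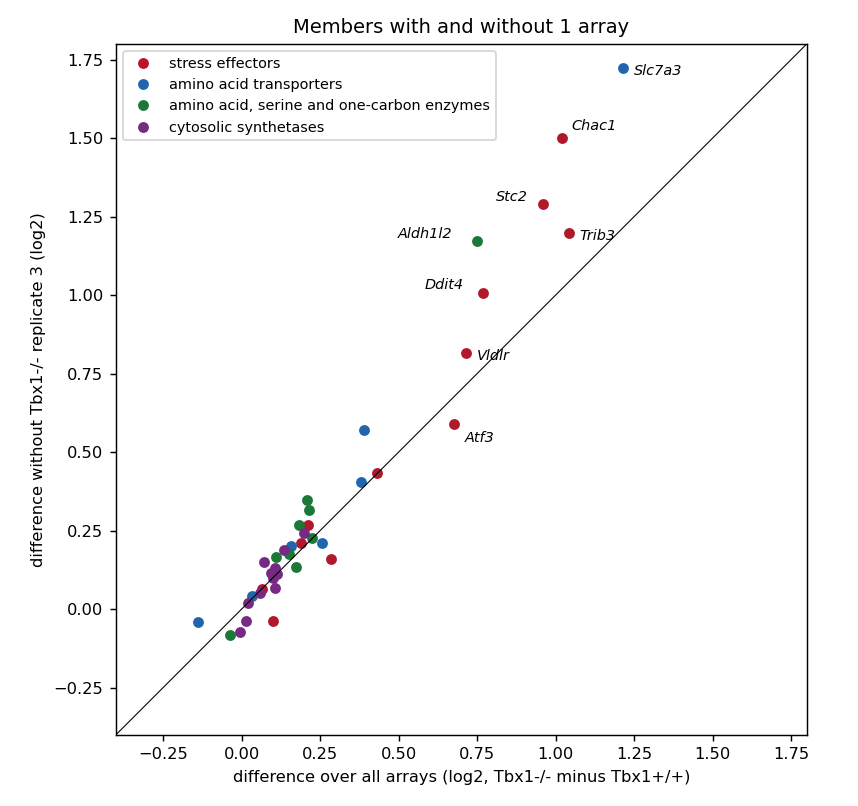
Log2 difference of each member over all arrays (horizontal axis) against that without replicate 3 labelled Tbx1-/- (vertical axis), coloured by role, with the line of equality. Slc7a3, Chac1, Aldh1l2, Stc2, Ddit4 and Trib3 lie above the line and Atf3 below it.

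Of 24 members with more than 1 probe set, the 44 other sets had a median difference of 0.14 and ranged from -0.10 to 2.15, and 37 of them had a higher mean under the Tbx1-/- label. Only 3 of the 44 averaged under 4.

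Other genes of the pathway, taken from lists of roles and not from the member list, were then tested. These lists too were made with earlier results of these data known. Of the 95 measured, 0 passed in limma over all genes, and at an unadjusted p below 0.05 there were 3 genes with higher and 1 with lower values, against 1.47% and 1.2% of all genes. Their median difference was 0.01. Upstream of Atf4, the 12 measured kinases, eIF2 and eIF2B subunits and Ppp1r15b differed by -0.14 to 0.10, with a median of -0.02. Of these 12, 4 had a higher and 8 a lower mean under the Tbx1-/- label, and Eif2s1 was not measured. Eif2ak2, the kinase that senses double-stranded RNA, differed by 0.10 (SE 0.11) and Ppp1r15b, the constitutive phosphatase subunit, by 0.09 (SE 0.08). Eif2s3x, of eIF2, differed by -0.14 (SE 0.14) and Eif2b1, of eIF2B, by -0.09 (SE 0.08).

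Among 10 other bZIP factors (median 0.02) Jdp2, a repressor related to Atf3, read 8.52, 8.03 and 8.55 (log2) on the arrays labelled Tbx1-/- and 7.75, 7.91 and 7.88 on those labelled Tbx1+/+. The groups were separate and the difference was 0.52 (SE 0.15), but the log2 difference of Jdp2 was 0.17 on averaging its probe sets and 0.33 with array weights, and the adjusted p in limma was 1.00, and 0.431 at the lowest over the alternatives. Among 16 further genes described as Atf4 targets (median 0.11), Pck2, the mitochondrial PEP carboxykinase, read 9.79, 9.72 and 9.48 under the Tbx1-/- label and 9.21, 9.30 and 9.35 under the Tbx1+/+ label, a difference of 0.38 (SE 0.10). Eif4ebp1, a repressor of translation initiation, differed by 0.34 (SE 0.12) and Gpt2, a mitochondrial alanine aminotransferase, by 0.18 (SE 0.08), and both had all arrays labelled Tbx1-/- above those labelled Tbx1+/+. Rab32, a small GTPase, was lower on all of them, by -0.42 (SE 0.11). The adjusted p in limma was 1.00 for each of these 4 genes, and over the alternatives it was lowest for Pck2, at 0.346.

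The synthetases outside the member list gave medians of 0.01 for the 10 remaining cytosolic synthetases and scaffold proteins, which differed by -0.06 to 0.08, and -0.00 for the 16 mitochondrial ones, at -0.11 to 0.19. Kars, the lysyl enzyme of both compartments, differed by 0.08 (SE 0.08). The 14 remaining one-carbon and amino acid enzymes had a median of -0.04, with Mthfd1l, the mitochondrial formate-producing enzyme, at 0.27 (SE 0.14) and Tyms, thymidylate synthase, at -0.13 (SE 0.09). The 18 remaining transporters had a median of 0.02, with Slc7a2, an arginine carrier, at 0.16 (SE 0.12). In these 4 lists 0 genes passed in limma, and 0 were below an unadjusted p of 0.05.

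**Figure D5:**
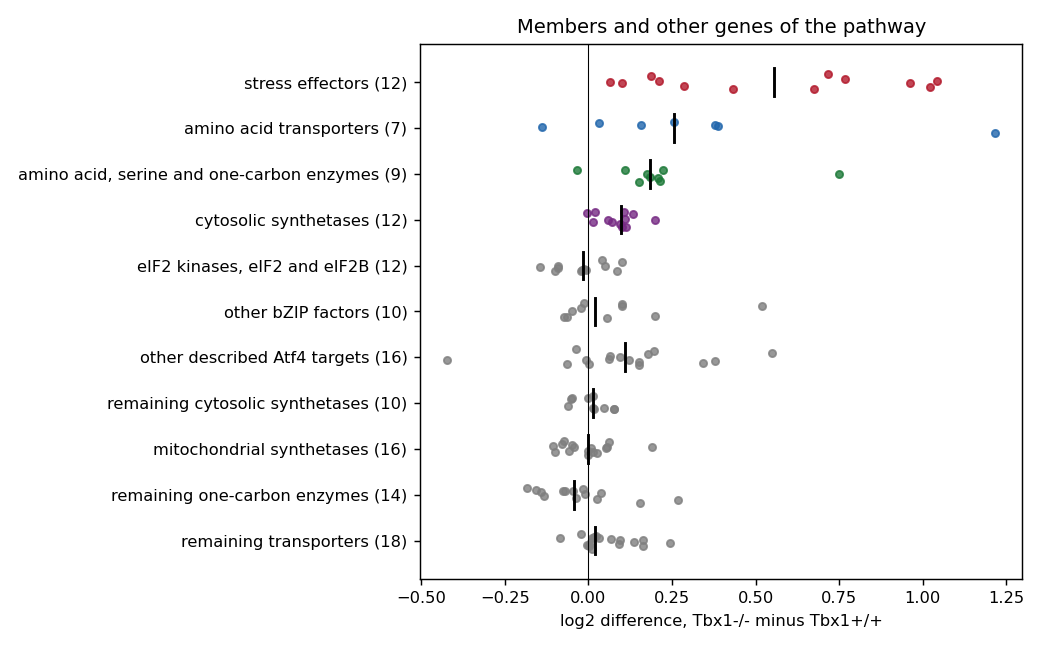
Log2 difference, Tbx1-/- minus Tbx1+/+ (horizontal axis), of each gene in the 4 roles of members and in 7 further lists of the pathway, with the number of genes measured in brackets and the median as a black bar. The medians of the 7 further lists lie between -0.04 and 0.11, and those of the members between 0.10 and 0.55. The members were chosen on this comparison, so their distance from the further lists cannot be read as support.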

How the data were processed

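Gene expression was measured on 6 Affymetrix mouse arrays, 3 labelled Tbx1-/- and 3 labelled Tbx1+/+, from 100 ng of total RNA each. Each probe set has a log2 value that the authors made with GCRMA, per the submitters' processing notes, its version not given in the sources used here. The log2 scale was read from the values (1.95 to 15.1). GCRMA equalizes distributions between arrays and compresses differences near background. Signal over background and the number of arrays limit the precision.

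The table held 45101 probe sets, of which the platform annotation named 1 gene for 34958 (18194 genes), several for 932 and none used here for the rest. Mars was found as Mars1. Genes were fitted with limma 3.58.1 in R 4.3.3 (lmFit, eBayes with an intensity trend) and adjusted by Benjamini-Hochberg over 16074 genes. The step was tested on simulated data. Named were the 41 members, Tbx1 and, of each further list, the 4 genes with the smallest p, of which the text prints part. Members and lists were chosen with earlier results of these data known. No p-value of a single member is printed, and counts of members by p-value are description only. Of 105 further pathway genes 95 were measured.

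Same-numbered arrays deviated together (correlations of 0.261, 0.13 and 0.135, against -0.195 to 0.0647 otherwise). The number was therefore read as a pairing found in the data, since the labels do not say what it marks. It entered as a block in an alternative fit only, and the SE and p-values of the main fit leave it out. No pair of arrays was identical (SD of differences 0.235 to 0.438). Not every stretch that holds the motif is reported here.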

Additional observations from a re-analysis of the deposited data

How the results depend on the processing

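The alternatives were no filter, values under 4 raised to 4, no intensity trend, averaging all probe sets of a gene, a further quantile normalization, arrays centred on their medians, array weights, the replicate block, each array left out and, chosen after seeing the data, no x_at or s_at probe sets. The median of the stress effectors moved beyond the spread between arrays only on averaging all probe sets of a gene (0.45, against 0.55). The other 3 role medians moved by less than that spread under all 15 alternatives. With 1 array left out, the median log2 difference of the stress effectors ranged from 0.50 to 0.58, and the other medians from 0.18 to 0.31 for the transporters, 0.11 to 0.23 for the enzymes and 0.04 to 0.13 for the synthetases. Of 600 values of single members, 599 moved by less than 1 SD, and Ddit3 gave 0.29 with the mean of its probe sets. Leaving out 1 of the 3 arrays of a group cannot move a member's difference by 1 SD. Dropping the filter, dropping the intensity trend or adding the replicate block leaves each member's difference unchanged. The count of 599 is therefore no measure of stability.

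Members past the threshold numbered 0 under every alternative except without Tbx1-/- replicate 3, which gave 4, so leaving out 1 array gave 0 to 4. Other pathway genes past it numbered 0 throughout. The number of all genes past it, 6, was 2 without the filter, with values raised to 4 or without the trend, 0 with the mean of probe sets, and 0 to 22 with 1 array left out. With the replicate block, 10 genes passed, and the block changed no call of a member or other pathway gene.

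Differences of members turned sign under at least 1 alternative for Aars, Gars, Phgdh, Ppp1r15a, Slc7a1, Tars and Wars, each by less than 1 SD, such as the log2 difference of Slc7a1 at -0.0094 with array weights. Among the other pathway genes, only the named ones were followed over every alternative, and small differences turned sign for 6 of these. These 6 never passed. Unnamed genes turned sign too without replicate 3 labelled Tbx1-/-, such as Sqstm1 (log2 difference 0.20 to -0.05) and Cebpg (-0.06 to 0.07). With array weights the log2 difference of Atf6 was -9.49e-05, the log2 difference of Cebpb -0.0053, the log2 difference of Cebpd -0.0073, the log2 difference of Eef1e1 0.043 and the log2 difference of Farsa 0.029. Averaging probe sets gave 0.0049 for Farsa, and leaving out x_at and s_at sets gave 0.054 for the log2 difference of Yars2. With 1 array left out, Cebpd ranged from -0.055 to 0.19, Eef1e1 from -0.13 to 0.055, Farsa from -0.15 to 0.015 and Yars2 from -0.23 to 0.021. The cause was not tested.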
